A study of Aquilegia coerulea with 32 samples.

Results

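Floral buds of wild-type *Aquilegia coerulea* 'Kiragami', a columbine whose flower carries sterile staminodes between stamens and carpels, were compared between s1 and s3, with attention to genes whose change was spread over both steps in between. At s1 stamen primordia were still being formed, at s2 the staminode primordia had just been completed, at s3 the rims of the carpel primordia stood up while some of the apex remained, and at s4 the carpels had used up the apex. Each stage had 8 RNA libraries, 32 in all. Fold changes between s1 and s3 compared 16 of these, with s2 read as the stage between. The s4 libraries entered the filter on low counts and the shared estimate of variation between libraries, and are otherwise given as levels. All plants were wild type, were vernalized in the cold before flowering and were otherwise grown in the same long days. Each s1, s2 or s3 library held a pair of buds from different individuals and each s4 library a single bud. Part of the sepals was taken off every bud, so that the remaining sepals, the organ primordia and the apex were all in the extract, and a signal cannot be assigned to any of them. A gene was called when edgeR's Benjamini-Hochberg adjusted p was under 0.05 and the fold change was at least 2, and a gene is termed spread here when it was called between s1 and s3 but neither between s1 and s2 (the early step) nor between s2 and s3 (the late step). Of 20477 genes tested, 769 were called between s1 and s3 (3.76%) and 602 of these were spread (2.94%).

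A floral meristem is a small dome of dividing cells kept undifferentiated by homeodomain proteins of the KNOX and WUSCHEL families, while boundary genes separate it from each new organ. Unlike a shoot meristem it is determinate, and its last cells go into the carpels. Young organs meanwhile begin to build a cuticle, stomata, plastids and vascular strands, in which xylem cells lay down cellulose, xylan and lignin before they die. The roles given below are those known from *Arabidopsis thaliana* for the closest homolog.

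Library totals lay between 21502103 and 31647297 estimated counts over the 32 libraries, with 25235401 to 27303622 at s1 and 21502103 to 29471154 at s3. The biological coefficient of variation was 31.2%. The libraries farthest from the mean of their own stage were s4 replicate 4, s3 replicate 7 and s2 replicate 7. Replicates held separate buds, but the paper took all buds from fewer plants than there are libraries, so some libraries shared plants. Which ones did is not given in the sources used here. The p-values therefore measure the spread between these libraries and not between independent plants.

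More genes rose than fell. Between s1 and s3, 645 genes were called higher, which is 3.15% of the genes tested, and 124 were called lower, which is 0.606%. The early step called 122 genes (0.596%) and the late step 64 (0.313%). Of the 769 genes, 107 were also called in the early step alone, 50 in the late step alone and 10 in both, and the 602 spread genes made up 78.3%. Spread genes comprised 508 higher at s3 (2.48% of the genes tested) and 94 lower (0.459%). These shares follow from the rule that chose the genes and nothing is read from them. A step that missed the call is not shown to be without change, since 326 spread genes had a step of at least 2-fold that did not pass the test, and 59 had a step with an adjusted p under 0.05 but less than 2-fold, against 1.11% (early step) and 0.63% (late step) of all genes tested with an adjusted p under 0.05 at any fold.

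The size of the steps describes how the change was divided. Genes with a called step are left out by the rule, which favours even division, so the share of even genes is not read as a result. Median standard errors of the early and late steps were 0.41 and 0.40 for rising genes. For falling genes they were 0.28 and 0.29, so the class of a single gene is uncertain. An even division, with 33.3 to 66.7% of the log2 change in the early step, was found in 392 spread genes. A further 131 had most of the change in the early step, 70 had most in the late step, and 9 had steps of opposite sign. The 508 genes higher at s3 had a median log2 fold change of 1.70, with medians of 0.92 for the early and 0.79 for the late step. For the 94 lower genes the median was -1.35, with -0.71 and -0.73 for the steps. The median over all genes tested was 0.01.

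**Figure D1:**
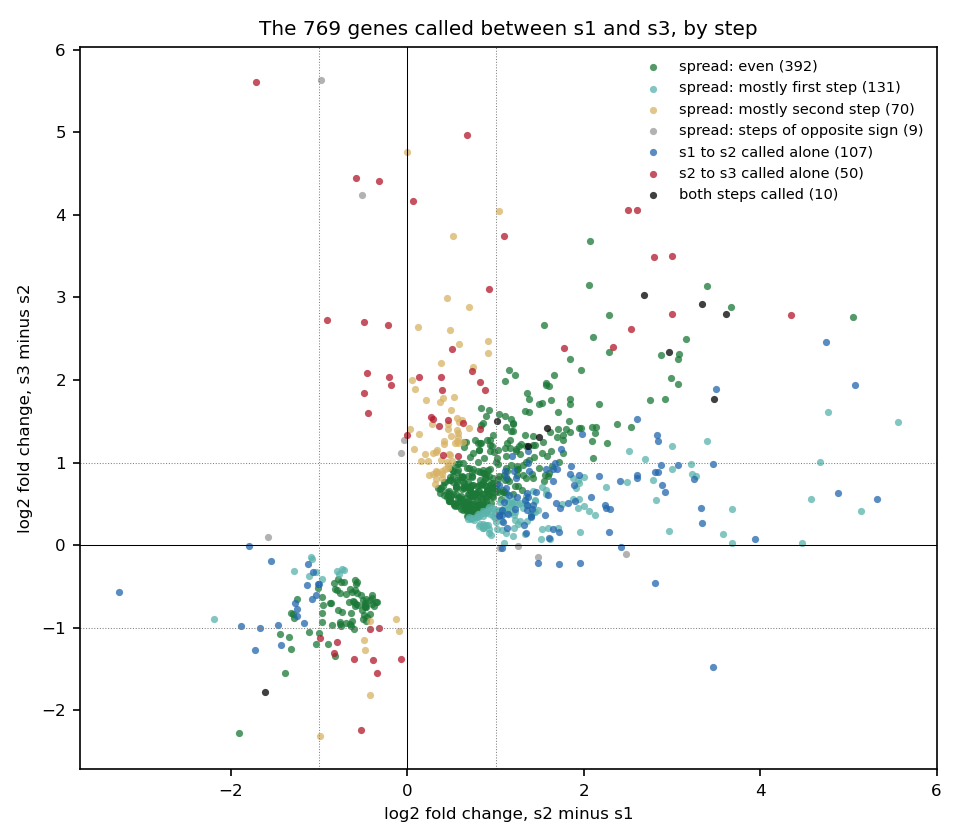
Log2 fold change of the early step (s2 minus s1, horizontal) against the late step (s3 minus s2, vertical) for the 769 genes called between s1 and s3, each point a gene and dotted lines at 2-fold. The 392 evenly divided genes lie along the diagonal in the upper right (317 higher) and lower left (75 lower).

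Rising and falling spread genes differed in level at s1, which follows in part from their direction and the filter. A gene needed more than 1 CPM in only 1 library, so a rising gene could be tested through s3 or s4 alone. On the TPM scale, the median of the gene means of the rising genes went from 0.697 at s1 through 1.21 at s2 to 2.18 at s3, and 148 of the 508 had a mean below 1 TPM at both s1 and s3. That of the falling genes went from 7.25 through 4.41 to 2.61, with 5 of 94 below 1 TPM at both. At s4 the medians were 3.0 and 2.09. The 8 libraries of s1 did not overlap the 8 of s3 in 123 rising genes (24.2%) and 54 falling ones (57.4%), against 516 of all genes tested (2.52%), and these values were part of the comparison that chose them. The median standard error of the log2 fold change was 0.41 for rising and 0.29 for falling genes.

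Genes just inside and just outside the thresholds had nearly the same values. BAM6 (Aqcoe1G367700) was spread with a log2 fold change of 1.005, whereas Aqcoe2G050800, at 0.9994, was not called. Aqcoe5G197400 was inside with an adjusted p of 0.0499 in edgeR's test, and Aqcoe7G420100, at 0.0503, was outside. Aqcoe4G277600 changed by 0.993 in the early step and was spread, while Aqcoe7G365300, at -1.003, counted as called in that step.

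Among the lists, that of meristem and boundary genes held the most falling spread genes. Of 23 genes of meristem and boundary function, 15 were called lower and none higher, 11 of them spread, and the median log2 fold change was -1.18 beside 0.01 over all genes tested. This list, like all others here, was drawn from tables that the study made on these libraries, so its direction is not independent evidence. Over the 1954 annotated genes tested, from which the lists were drawn, 626 were called higher and 120 lower and the median log2 fold change was 0.86, so that the counts of rising lists below stand beside a background that already leans upward. The summed level of the list ran from 1341 to 1816 TPM (median 1536) at s1 and from 571 to 814 TPM (median 726) at s3. All s3 libraries were below all s1 libraries. In RNA of mixed bud tissue, fewer cells of a type and less RNA per cell cannot be told apart.

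*AqSTM1* (Aqcoe4G224800) and *AqSTM2* (Aqcoe1G341500) are homologs of SHOOT MERISTEMLESS, the KNOX protein that keeps meristem cells undifferentiated. AqSTM1 was at 104 TPM in the lowest s1 library, 143 at the median and 179.5 in the highest, against 47.5, 60.3 and 77.2 at s3. Its log2 fold change was -1.18 ± 0.12 (SE; n = 8 libraries per stage; edgeR adjusted p = 3.2e-08), made of -0.65 and -0.53. AqSTM2 was lower in level, with 27.9, 40.1 and 52.8 TPM at s1 and 10.3, 12.3 and 17.9 at s3. It fell by 1.60 ± 0.15 on the log2 scale (edgeR adjusted p = 9.5e-09). For both genes the libraries of s1 and s3 were fully apart, and the s4 medians of 32.96 and 6.35 TPM were lower again.

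Partners of the KNOX proteins were lower at s3 too. PNF (Aqcoe1G138800) and PNY (Aqcoe2G233200), BELL homeodomain proteins that bind SHOOT MERISTEMLESS, had log2 fold changes of -1.19 ± 0.11 and -1.03 ± 0.22. PNF ranged from 43.1 to 64.0 TPM at s1 and from 15.8 to 25.6 at s3. The libraries of the stages did not overlap for either gene. A KNOX homolog, *AqKXL2* (Aqcoe3G280300), lay just short of the fold threshold, at -0.998 ± 0.105 with an adjusted p of 5.4e-08 in edgeR's test. The KNOX homolog AqKXL3, counted in the xylem list below, was not called. Its medians were 47.9 TPM at s1, 75.7 at s2 and 36.5 at s3.

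*AqWUS* (Aqcoe2G057900) is the homolog of WUSCHEL, which maintains the stem cells. Its level was 14.04, 22.6 and 30.3 TPM (lowest, median and highest) at s1 and 3.19, 7.46 and 10.2 at s3, and the log2 fold change was -1.54 ± 0.37 (edgeR adjusted p = 0.0062). The stages did not overlap, and s4 stood at a median of 7.13 TPM. WOX2 (Aqcoe1G464700), another gene of the WUSCHEL family, had the lowest fold change of all spread genes, -4.18 ± 0.86, from a median of 1.09 TPM at s1 to a median of 0 at s3. Its libraries overlapped, since the lowest s1 value was 0.151 TPM and the highest s3 value 0.209.

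Boundary genes fell over the same interval. *AqLAS* (Aqcoe1G411100), the homolog of LATERAL SUPPRESSOR, which acts in axils, had 16.4, 22.99 and 28.2 TPM at s1 and 3.08, 6.84 and 11.1 at s3, a log2 fold change of -1.69 ± 0.21. LOB (Aqcoe5G405600), which marks organ boundaries, ranged from 118.9 to 183 TPM at s1 and from 46.4 to 78.1 at s3, with -1.12 ± 0.12. A homolog of CUC3 (Aqcoe5G113900), a NAC factor of organ boundaries, changed by -1.28 ± 0.17. None of these overlapped between stages. Another CUC3 homolog, *AqCUC3* (Aqcoe6G165500), was not spread because its early step of -1.09 was called, and the same holds for *AqHAN* (Aqcoe5G190300) and *AqAIL6* (Aqcoe6G092100), with early steps of -1.18 and -1.08.

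Other developmental regulators were divided. *AqHB3* (Aqcoe1G245800), a homeobox gene, and ZPR3 (Aqcoe2G139400) were spread, with log2 fold changes of -1.05 ± 0.15 and -1.33 ± 0.16. *AqPHB* (Aqcoe1G178700), *AqAS1* (Aqcoe1G459000) and *AqBOP* (Aqcoe2G033300) passed the test for p but not for fold, at -0.82, -0.99 and -0.78. Every s3 library was below every s1 library in all of these genes.

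**Figure D2:**
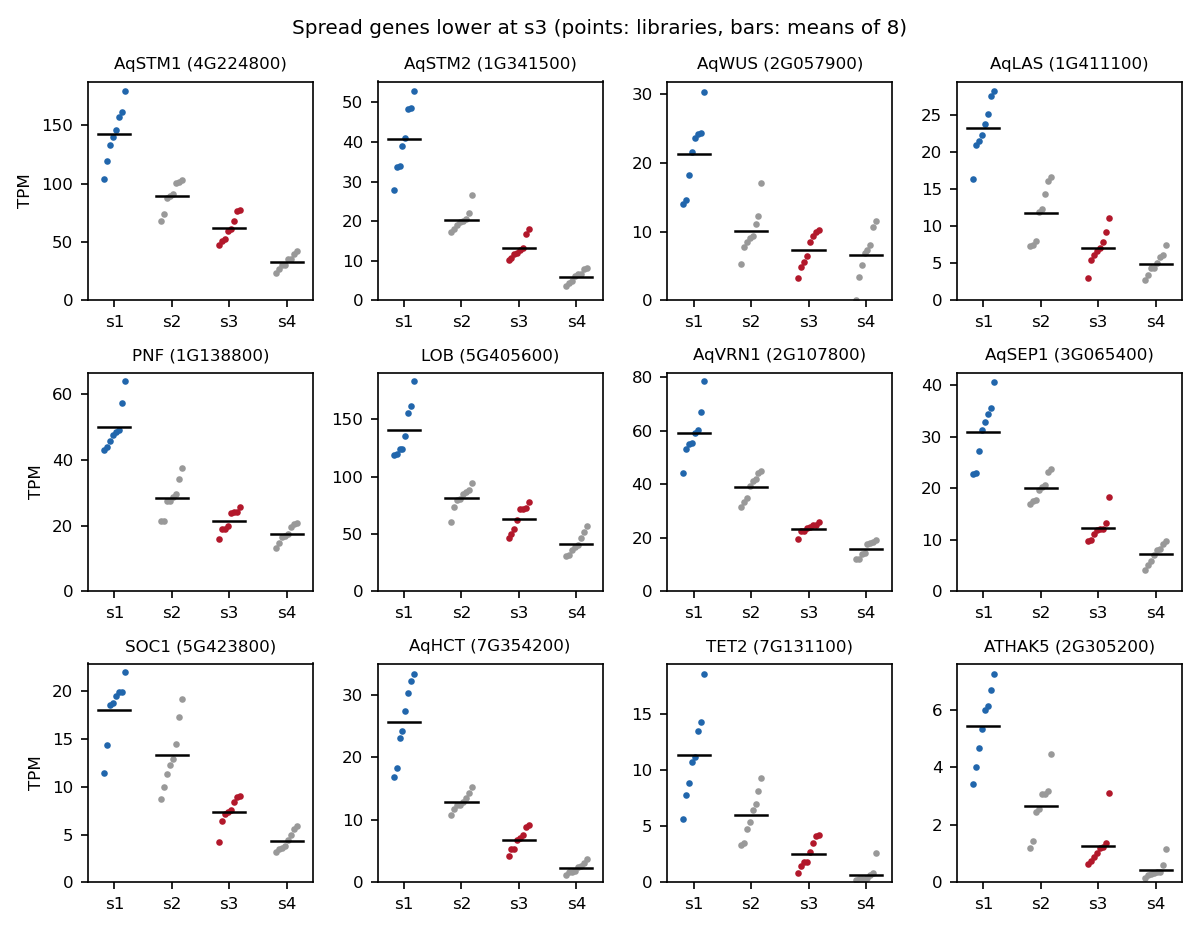
TPM by stage in each of the 8 libraries (points, sorted within a stage) with their mean (bar) for 12 spread genes lower at s3, with s1 in blue, s3 in red, and s2 and s4 in grey. In each panel the s2 mean lies between those of s1 and s3, and AqSTM1 goes from a median of 143 TPM at s1 to 60.3 at s3.

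Most genes in the list of floral regulators, which have various roles, fell as well. Of 15 such genes, 11 were called lower and 2 higher, and 5 of the lower ones were spread and 6 called in a step (median log2 fold change -1.36). *AqVRN1* (Aqcoe2G107800), a B3-domain protein related to VERNALIZATION1, had 44.2, 57.3 and 78.4 TPM at s1 and 19.5, 23.8 and 25.8 at s3. Its log2 fold change of -1.30 ± 0.10 had an edgeR adjusted p of 1.2e-10, and the libraries did not overlap. LRP1 (Aqcoe2G040300) and *AqSTY2* (Aqcoe5G181200), of the SHI/STYLISH family that promotes style development and auxin synthesis, changed by -1.36 ± 0.12 and -1.02 ± 0.14. SUP (Aqcoe2G368300), the zinc finger protein SUPERMAN at the stamen and carpel border, changed by -1.35 ± 0.29, and its libraries overlapped, with 8.02 TPM lowest at s1 and 8.76 highest at s3. FD (Aqcoe6G217300), the bZIP partner of the flowering signal FT, changed by -1.56 ± 0.44.

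By contrast, *AqPAN* (Aqcoe3G399500) and *AqSAP* (Aqcoe1G384300) were called in the early step, and *AqUFO1* (Aqcoe1G161900) in the late one. The members that rose were *AqCRC* (Aqcoe3G065300), the homolog of CRABS CLAW of the carpels, at 1.496 ± 0.38, and HB51 (Aqcoe1G115900), at 2.87 ± 0.28, and neither was spread. Among 9 MADS-box genes, the family of floral identity factors, *AqSEP1* (Aqcoe3G065400) and SOC1 (Aqcoe5G423800) were spread and lower, *AqAGL12* (Aqcoe6G007500) was called higher with an early step, and 6 were not called. AqSEP1, of the SEPALLATA type, had 22.7, 32.04 and 40.6 TPM at s1 and 9.86, 12 and 18.2 at s3, a log2 fold change of -1.29 ± 0.16. SOC1, a flowering-time integrator, ranged from 11.4 to 21.9 TPM at s1 and from 4.21 to 8.99 at s3, at -1.27 ± 0.17. Both were apart between the stages.

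DNA methylation genes made up a short list of 5, with 3 lower, 2 of them spread, and none higher. Both spread genes are homologs of DRM1, a de novo DNA methyltransferase. Aqcoe4G061800 had 2.06, 2.66 and 3.18 TPM at s1 and 0.132, 1.14 and 2.03 at s3 (log2 fold change -1.29 ± 0.34). Aqcoe4G192200 changed by -1.12 ± 0.31. Only the former did not overlap between stages, and VIM1 (Aqcoe3G422300), needed to maintain CG methylation, was called in the late step.

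Among the named genes that fell were also genes of metabolism and transport. *AqHCT* (Aqcoe7G354200), a hydroxycinnamoyl transferase of the lignin pathway, had 16.9, 25.9 and 33.4 TPM at s1 and 4.24, 7.01 and 9.14 at s3. Its log2 fold change of -1.90 ± 0.18 (edgeR adjusted p = 1.3e-08) was made of -0.97 and -0.93, each under 2-fold with an adjusted p of 0.0025 and 0.0054. HAK5 (Aqcoe2G305200), a high-affinity potassium transporter, fell from a median of 5.66 to 1.107 TPM, with -1.001 and -1.07 in the steps. TET2 (Aqcoe7G131100), a tetraspanin of the plasma membrane, changed by -2.10 ± 0.39, and GH3.1 (Aqcoe5G214900), of the family that conjugates auxin, by -2.14 ± 0.51. Further low values were -3.31 ± 0.72 for Aqcoe2G103100, which has no annotation, -2.46 ± 0.53 for the cytochrome P450 CYP716A1 (Aqcoe1G406500), -1.91 ± 0.39 for Aqcoe4G185000, related to a storekeeper DNA-binding protein, and -1.83 ± 0.28 for Aqcoe5G104000, an acyl-CoA N-acyltransferase. For each of these 8 genes the s3 libraries lay below all s1 libraries. Other homologs of CYP716A1 went the opposite way, with Aqcoe1G405800 and Aqcoe2G116800 spread and higher, at 2.16 ± 0.49 and 2.37 ± 0.65. A further homolog, Aqcoe5G408000, was not called, at -0.99 ± 0.29.

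Xylem and secondary wall genes were the largest group of rising spread genes among the lists. Of 25 genes, 18 were called higher and none lower, 16 of them spread, with a median log2 fold change of 1.51. Their summed level was 52.6 to 94.7 TPM (median 70.1) at s1 and 88.5 to 124 TPM (median 100.5) at s3, and the libraries overlapped. Much of this sum was the KNOX homolog *AqKXL3* (Aqcoe7G052800), which had medians of 47.9, 75.7 and 36.5 TPM at s1, s2 and s3 and was not called between s1 and s3, at -0.34 ± 0.15 with an edgeR adjusted p of 0.21. The paper profiles AqKXL3 among the class-I KNOX genes, so it is counted in this list but not taken as a xylem marker. The sum of the other 24 members, taken after the values were seen, was 16.8 to 42.6 TPM (median 21.4) at s1, 26.03 to 68.8 TPM (median 49.9) at s2 and 51.8 to 85.5 TPM (median 65.6) at s3. Without AqKXL3 all s3 libraries were thus above all s1 libraries.

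Genes of the last phase of xylem formation included the most abundant member that rose. XCP1 is a cysteine protease that clears dying xylem cells, and it has 2 homologs here. Aqcoe6G164200 had 5.37, 7.99 and 19.4 TPM at s1 and 17.5, 24.2 and 31.1 at s3, a log2 fold change of 1.39 ± 0.23 and the highest s1 library overlapped s3. Aqcoe5G113800 had 1.97, 3.21 and 5.25 TPM at s1 and 6.97, 7.94 and 12.3 at s3, at 1.28 ± 0.22 and without overlap. MC9 (Aqcoe6G081600), a metacaspase active in the same cells, changed by 1.66 ± 0.36. WAT1 (Aqcoe5G182000), a vacuolar auxin transporter needed for secondary walls, had 0.288, 0.624 and 1.16 TPM at s1 and 0.846, 2.95 and 4.30 at s3, at 2.05 ± 0.34, with s3 replicate 7 the lowest at s3.

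Wall-building enzymes and their regulators were present at low levels. CESA7 (Aqcoe7G221000) and CESA8 (Aqcoe4G032300), cellulose synthases of secondary walls, changed by 1.67 ± 0.37 and 1.32 ± 0.36, and IRX8 (Aqcoe1G365400), of xylan synthesis, by 2.43 ± 0.62. MYB83 (Aqcoe2G014200), a switch of the secondary wall program, went from a median of 0.237 to 1.18 TPM, at 1.96 ± 0.43, and MYB42 (Aqcoe7G074600) and NAC075 (Aqcoe7G145000) changed by 1.32 ± 0.27 and 1.34 ± 0.28. The laccases LAC4 (Aqcoe2G103800), LAC11 (Aqcoe6G122600) and LAC17 (Aqcoe2G225000), which polymerize lignin, changed by 2.67 ± 0.69, 1.85 ± 0.39 and 1.51 ± 0.34. Of these, LAC11 alone had all s3 libraries above all s1 libraries.

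Lignin precursor genes were split in direction. Of 11, 4 were called higher and AqHCT lower, and 3 of the 4 were spread. The median log2 fold change of the list was 0.86, as over all annotated genes tested. CCR1 (Aqcoe2G018600), cinnamoyl-CoA reductase at the entry to lignin synthesis, had 1.56, 3.54 and 4.48 TPM at s1 and 7.89, 8.87 and 12.7 at s3, at 1.58 ± 0.24 (edgeR adjusted p = 2.1e-05). CAD9 (Aqcoe2G329400), an alcohol dehydrogenase of the same route, changed by 1.305 ± 0.24, and OMT1 (Aqcoe7G037600), a methyltransferase, by 3.39 ± 0.66 from a median of 0.0413 to 0.726 TPM. CCR1 and OMT1 did not overlap between the stages.

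Phloem genes rose in 3 of 7 cases and fell in 1, all 4 spread. APL (Aqcoe1G159000), the MYB factor of phloem identity, had 0.305, 0.541 and 1.39 TPM at s1 and 1.77, 2.10 and 2.76 at s3 (log2 fold change 1.62 ± 0.40), without overlap. AKT2 (Aqcoe5G272500), a phloem potassium channel, changed by 3.66 ± 0.71, from at most 0.0791 TPM at s1 to a median of 0.333 at s3. Homologs of the lectin PP2-A1 went opposite ways, Aqcoe4G027000 at 2.08 ± 0.40 and Aqcoe4G084100 at -1.59 ± 0.48. The latter lost its call when any of 9 libraries was left out (edgeR adjusted p = 0.052 to 0.062).

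**Figure D3:**
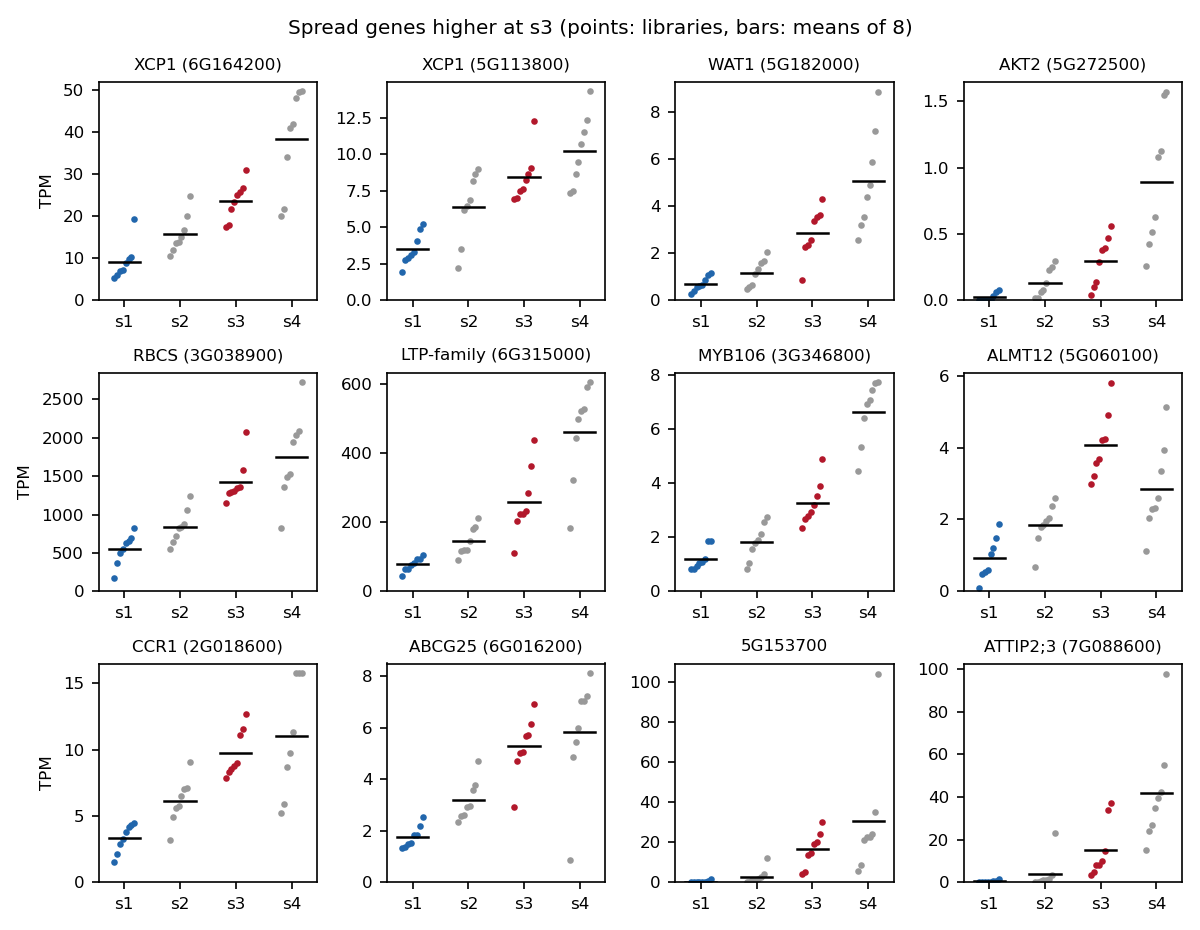
TPM by stage in each of the 8 libraries (points, sorted within a stage) with their mean (bar) for 12 spread genes higher at s3, with s1 in blue, s3 in red, and s2 and s4 in grey. CCR1 and RBCS have all s3 libraries above all s1 libraries, whereas XCP1 (6G164200) has a high s1 library of 19.4 TPM.

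Of 18 photosynthesis genes, 12 were called higher and none lower, 11 of them spread, with a median log2 fold change of 1.15. The summed level was 529 to 1751 TPM (median 1354) at s1 and 2451 to 4025 TPM (median 2620) at s3, so that every s3 library exceeded every s1 library. RBCS (Aqcoe3G038900), the small subunit of Rubisco, made up much of this with 171, 591 and 826 TPM at s1 and 1153, 1326 and 2082 at s3, at 1.39 ± 0.23 and steps of 0.63 and 0.76. LHCB1.3 homologs, which bind chlorophyll in the antenna, changed by 2.17 ± 0.56 (Aqcoe2G043000) and 1.297 ± 0.28 (Aqcoe4G047100). PORA (Aqcoe2G161800), of chlorophyll synthesis, changed by 1.17 ± 0.23, LHCA6 (Aqcoe7G431400) by 1.12 ± 0.24, SBPASE (Aqcoe1G084600), of the Calvin cycle, by 1.02 ± 0.23 and NDF2 (Aqcoe2G064400), of the chloroplast NDH complex, by 2.37 ± 0.50. RBCS, LHCA6 and SBPASE were apart between stages.

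Heat shock genes moved between the same stages. Of 26, 14 were called higher and 1 lower, 9 of the higher ones spread, with a summed level of 222 to 543 TPM (median 361) at s1 and 602 to 1584 TPM (median 1035) at s3, without overlap. The most abundant, the small heat shock protein Aqcoe5G438600, was called in the late step and is not spread. Of the spread members, HSFC1 (Aqcoe7G179300), a heat shock factor, changed by 3.26 ± 0.65, and HSP20 proteins by 2.40 ± 0.61 (Aqcoe1G067500), 2.25 ± 0.59 (Aqcoe3G327500) and 1.61 ± 0.32 (Aqcoe5G428100). Their part in the rises described for the wall, photosynthesis, cuticle and hormone lists was not tested.

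Surface genes rose in part. Of 25 cuticle and wax genes, 11 were called higher and none lower, 9 of them spread (median log2 fold change 1.12). Among all annotated genes tested, 626 of 1954 were called higher (median 0.86), so nothing is read from the count. Their summed level overlapped between stages for the cuticle and wax genes, with 138 to 366 TPM at s1 and 220 to 488 at s3. MYB106 (Aqcoe3G346800), a regulator of epidermal cell shape and cuticle, had 0.823, 1.06 and 1.88 TPM at s1 and 2.36, 3.05 and 4.89 at s3, at 1.46 ± 0.22 without overlap. CER4 (Aqcoe2G135400), a reductase that makes wax alcohols, changed by 2.41 ± 0.49 and was apart as well. KCR2 (Aqcoe5G381700), of fatty acid elongation, changed by 2.44 ± 0.53, and GPAT6 (Aqcoe1G429000), of cutin synthesis, by 1.12 ± 0.23. The early step of Aqcoe5G158800, related to the wax ester synthase WSD1, was called, whereas its neighbours in name Aqcoe5G158200 and Aqcoe5G158600 were spread at 1.59 ± 0.37 and 1.02 ± 0.20.

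Lipid transfer proteins, small secreted proteins of the epidermis, rose in 7 of 14 cases, all spread, and none was called lower. Their summed level did not rise, with 6080 to 6988 TPM (median 6783) at s1 and 5027 to 6724 TPM (median 6041) at s3. Aqcoe6G315000 had 44.9, 79.4 and 105 TPM at s1 and 111.6, 229 and 437 at s3, at 1.76 ± 0.24. Aqcoe3G025900 changed by 1.86 ± 0.28 and Aqcoe1G403300, an LTP4 homolog, by 1.46 ± 0.28. The first 2 were apart between the stages.

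Of 7 stomatal lineage genes, 5 were called higher and 1 lower, 3 of them spread. *AqMUTE* (Aqcoe2G332800), *AqEPF1* (Aqcoe1G319600) and FMA (Aqcoe2G399200) had called early steps of 1.56, 1.40 and 3.46. Spread among the higher genes were EPFL9 (Aqcoe2G409200), the peptide stomagen that promotes stomata, at 1.61 ± 0.32, and ALMT12 (Aqcoe5G060100), a guard cell anion channel, with 0.103, 0.817 and 1.87 TPM at s1 and 3.0, 3.96 and 5.80 at s3, at 2.18 ± 0.34. Another ALMT12 homolog, Aqcoe3G235700, was spread and lower, at -1.15 ± 0.31. *AqEPFL4* (Aqcoe2G352600) was under the fold threshold, at -0.94 ± 0.11.

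**Figure D4:**
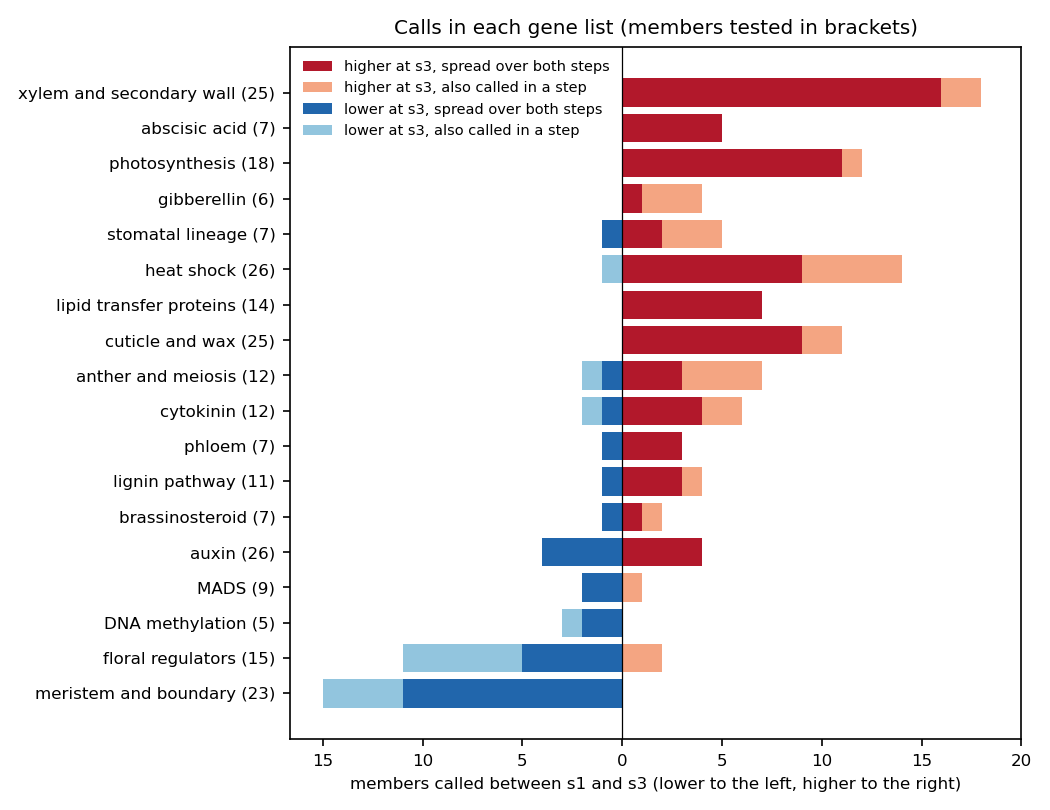
Number of members called between s1 and s3 in each of 18 gene lists, lower to the left and higher to the right, with dark bars for spread genes and light bars for genes also called in a step, and the number tested in brackets. Xylem and secondary wall genes reach 18 of 25 higher, and meristem and boundary genes 15 of 23 lower.

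Hormone genes were mixed. Of 26 auxin genes, 4 rose and 4 fell, all spread, and 18 were not called. Their median log2 fold change was 0.40, beside 0.86 over all annotated genes tested. ABCB4 (Aqcoe1G248900), an auxin transporter, changed by 1.38 ± 0.30 and IAA11 (Aqcoe7G236700), a repressor of auxin response, by 3.70 ± 0.997, whereas IAA3 (Aqcoe2G360500), of the same family, changed by -1.33 ± 0.36. *AqMP* (Aqcoe5G226900), the auxin response factor MONOPTEROS, was not called, at -0.39 ± 0.09 with all s3 libraries (131.5 to 192 TPM) below all s1 libraries (212 to 273 TPM).

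Cytokinin genes were called higher in 6 and lower in 2 of 12 cases. CKX1 (Aqcoe1G038400), which degrades cytokinin, had 5.70, 8.92 and 11.6 TPM at s1 and 1.51, 3.21 and 5.30 at s3, a spread fall of -1.35 ± 0.27 without overlap. PUP3, of the purine permease family in which some members carry cytokinins, had 3 spread homologs, Aqcoe6G072800 at 2.599 ± 0.68, Aqcoe6G072900 at 1.93 ± 0.59 and Aqcoe6G073100 at 1.55 ± 0.38. PUP4 (Aqcoe3G054800) had no count in any s1 library and counts in 6 of 8 s3 libraries, at least 16.7-fold higher at s3 against a floor of 3 counts over the 8 s1 libraries. *AqAHP6* (Aqcoe7G234000), an inhibitor of cytokinin signalling, was called in both steps, at -1.61 and -1.78.

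Abscisic acid genes rose in 5 of 7 cases, all spread. None was called lower in the main fit, but 1 was with DESeq2, without s4, and in the s1 and s3 libraries alone. The same held with the 3 most distant libraries left out. ABCG25 (Aqcoe6G016200), an exporter of the hormone, had 1.34, 1.68 and 2.55 TPM at s1 and 2.92, 5.38 and 6.91 at s3, at 1.61 ± 0.25 without overlap. A pair of homologs of the biosynthetic enzyme ABA2, Aqcoe4G266800 and Aqcoe4G266900, changed by 1.75 ± 0.47 and 1.57 ± 0.38, and the receptor PYL4 (Aqcoe1G150400) by 1.58 ± 0.43. Of 6 gibberellin genes, 4 rose and 1 of these was spread, a GASA peptide gene (Aqcoe6G297000) at 2.20 ± 0.47. Of 7 brassinosteroid genes, the biosynthetic CYP90D1 (Aqcoe5G448000) was spread at 1.01 ± 0.20 and ROT3 (Aqcoe1G406300) at -2.22 ± 0.58 (-1.73 and no longer called without s1 replicate 6), while DWF4 (Aqcoe1G376900) was called in the early step. The ROT3 entry is a transcript of 439 bases described only as a cytochrome P450 superfamily protein. Another ROT3 homolog (Aqcoe6G130300), higher in level, was not called, at -0.58 ± 0.17.

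Anther and meiosis genes were called higher in 7 and lower in 2 of 12 cases. Spread among the higher were MS2 (Aqcoe2G052800), a reductase of the pollen wall, at 2.56 ± 0.49, MCT1 (Aqcoe5G279900) at 1.202 ± 0.33, and BAM2 (Aqcoe6G009700), a receptor kinase of early anthers, whose steps of 0.57 and 0.57 were equal to 2 decimals. TEL2 (Aqcoe3G136200), related to the RNA-binding protein TERMINAL EAR, was spread and lower, at -1.03 ± 0.12. SWI1 (Aqcoe7G088400), needed for meiotic chromosome pairing, was called in the late step, at 4.06.

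**Figure D5:**
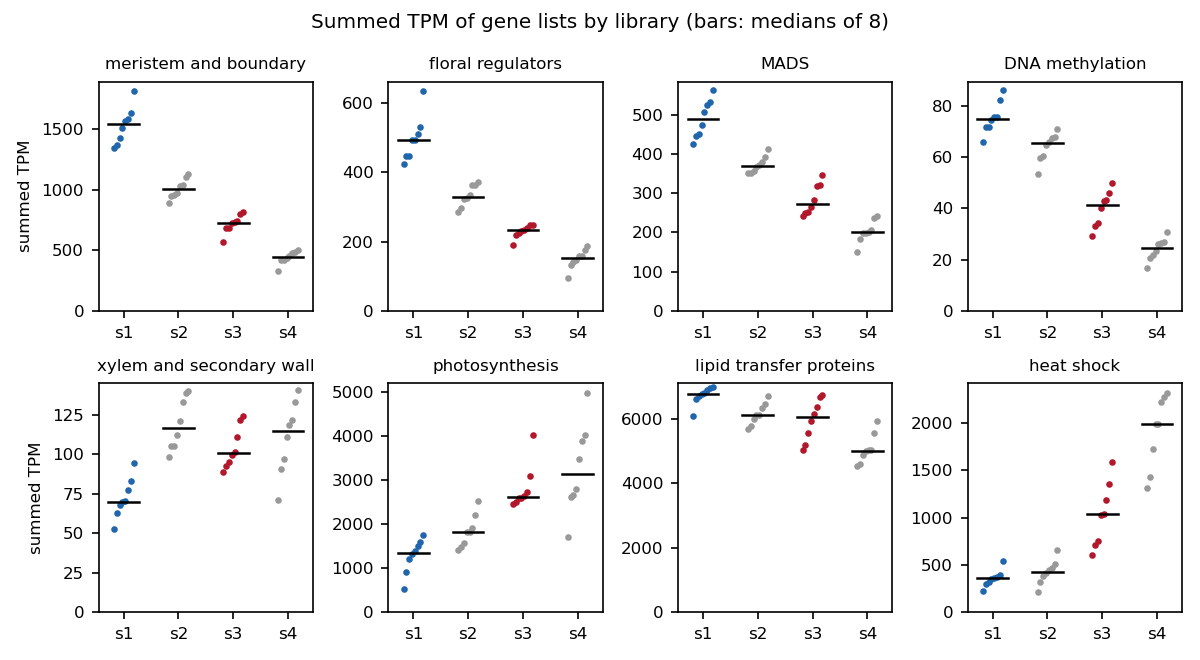
Summed TPM of 8 gene lists in each library (points) with the median of 8 (bar), s1 in blue, s3 in red, and s2 and s4 in grey. The meristem and boundary sum falls from a median of 1536 to 726 TPM and the photosynthesis sum rises from 1354 to 2620 TPM without overlap, while xylem and lipid transfer protein sums overlap between s1 and s3. The xylem sum includes the uncalled AqKXL3, without which its s1 libraries (at most 42.6 TPM) lie below its s3 libraries (at least 51.8 TPM).

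The highest spread genes were nearly silent at s1. ASML2 (Aqcoe3G118300) had no count in any s1 library and 0.191, 1.12 and 4.001 TPM at s3, at least 71.3-fold higher against the floor of 3 counts over the 8 s1 libraries. A C2H2 zinc finger gene (Aqcoe3G231100) and an unannotated gene (Aqcoe1G159600) were likewise without counts at s1, at least 30.1-fold and at least 17.1-fold higher. A glycosyl hydrolase of family 17 (Aqcoe5G257000) had 3 counts at s1 and 98 at s3, a ratio of 32.8 with a 95% counting interval of 10.9 to 162. In all, 15 spread genes had no s1 count, with bounds of 7.37 to 71.3-fold, and such bounds and intervals cover counting error only. The median log2 fold change of the 508 rising genes stayed at 1.70 with these genes at their bounds.

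Higher in level were an EF-hand calcium-binding gene (Aqcoe5G153700), with 0, 0.0557 and 1.61 TPM at s1 and 4.29, 16.9 and 30.3 at s3 (log2 fold change 5.66 ± 0.89), and TIP2;3 (Aqcoe7G088600), a water and ammonia channel of the vacuole membrane, with 0, 0.266 and 1.56 TPM at s1 and 3.38, 9.25 and 37.3 at s3 (5.03 ± 0.86). Neither overlapped between the stages. Among rising spread genes with a log2 fold change of at least 1.5 and no overlap between stages, the most even steps were those of an AP2-type integrase-like DNA-binding gene (Aqcoe1G030300), with steps of 0.91 and 0.91, a GMC oxidoreductase (Aqcoe7G051100), with 1.01 and 1.01, and the carboxylesterase CXE18 (Aqcoe6G005200), with 0.86 and 0.87. All s3 libraries exceeded all s1 libraries in these 3 genes.

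Spread genes next to each other in locus number were few. Runs of at least 3 spread genes with locus numbers no more than 300 apart numbered 5 and held 15 genes. They included the PUP3 homologs and 3 oxygenases of the 2-oxoglutarate type (Aqcoe6G074000, Aqcoe6G074100 and Aqcoe6G074300), at 1.05, 1.28 and 2.73. Where genes share an annotation, as the AqSTM, XCP1, PUP3, ABA2, WSD1-like, HSP20 and lipid transfer protein genes do, the pseudo-alignment could divide reads among similar copies. Their sequences were not compared here, so the value of a single copy is to be read as uncertain.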

How the data were processed

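RNA of buds without part of their sepals had been amplified (SMART-Seq v4, Nextera XT, which does not mark strand) and sequenced in 32 libraries. The authors trimmed reads with Trim Galore and pseudo-aligned them with kallisto to 1 transcript per gene of the *Aquilegia × coerulea* 'Goldsmith' v3.1 transcriptome. The deposited files give estimated counts, which are not normalized, and TPM, which the authors took from kallisto and which sums to a fixed total per library. Estimated counts were rounded and tested with edgeR 4.0.16 (R 4.3.3, TMM, quasi-likelihood, a term per stage over all 32 libraries) on genes that exceeded 1 CPM somewhere. TPM served for levels only. The test was checked on simulated data. SE is the absolute log2 fold change divided by the root of F.

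The members, the 18 gene lists (255 genes) and the annotation came from the study's tables and were chosen with earlier results of these data known. The named genes were the 6 highest and 6 lowest fold changes among spread genes whose stages did not overlap in CPM, up to 4 called genes per list with spread genes and then the smallest adjusted p preferred, list genes with an Aq symbol, the 3 most even spread genes in each direction among those without overlap whose log2 change reached 1.5 in size, and genes at the thresholds. Other list members were named after their values were seen. Alternatives were DESeq2 1.42.0, length-scaled TPM counts, RLE factors, other filters, fewer stages, a replicate block, each library left out in turn and, added after seeing the data, the 3 most distant libraries left out together. None of 24823 reference entries matched the locus identifiers, so no sequence is given. The labels give no batch.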

Additional observations from a re-analysis of the deposited data

Results flagged for a closer look

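Among 105 named genes, each examined at s1 and at s3, the highest or lowest of the 8 libraries stood apart in 11 of the 206 groups with any counts, measured as its gap to the nearest library divided by the range, on log2 CPM, and compared with Dixon's critical value for 8 samples. Chance gives about 1 in 20 groups. Library s3 replicate 7 was low for WAT1 (0.554; 0.846 TPM against 2.27 to 4.30) and ABCG25 (0.5261; 2.92 against 4.69 to 6.91) and high for AqSEP1 (0.552; 18.2 against 9.86 to 13.2). Library s3 replicate 1 was high for HAK5 (0.591; 3.12 TPM against 0.634 to 1.38), AqHAN (0.736; 17.1 against 5.94 to 8.83) and AqAIL6 (0.61; 6.24 against 3.48 to 4.403). Library s3 replicate 4 was high for XCP1 Aqcoe5G113800 (0.605; 12.3 TPM against 6.97 to 9.02) and RBCS (0.583; 2082 against 1153 to 1584). Library s3 replicate 2 was high for ASML2 (0.555; 4.001 TPM against 0.191 to 1.34). Library s1 replicate 7 was high for the EF-hand gene Aqcoe5G153700 (0.58; 1.61 TPM against 0 to 0.580) and AqAGL12 (0.616; 1.08 against 0.274 to 0.543).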

How the results depend on the processing

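Between s1 and s3, 645 genes were called higher and 124 lower, and the alternatives gave 516 (more than 1 CPM in at least 8 libraries) to 746 (DESeq2) higher and 105 to 141 lower, all within 1.5 times. Leaving out a library in turn gave 532 (without s1 replicate 6) to 710 (without s4 replicate 4) higher and 111 to 138 lower, and, for spread genes, 431 to 538 higher and 84 to 106 lower. With s4 replicate 4, s3 replicate 7 and s2 replicate 7 left out together, an alternative chosen after seeing the data, 769 were called higher and 147 lower, with 590 and 114 spread. Spread genes numbered 520 higher and 100 lower with DESeq2, of which 421 and 90 were shared. A threshold of 1.5-fold gave 193 lower spread genes in place of 94. Same-numbered libraries of s1 and s3 correlated by -0.27 to 0.43 in their deviations, 3 of 8 pairs above 0.1. Of these 16 libraries, 3 correlated best with their own number, so the numbers were not taken to pair the samples. Over all stage pairs the range was -0.59 to 0.76, with 19 of 48 above 0.1. Some pairs of s2 and s3 were high, with 0.76 for replicate 7 and 0.70 for replicate 2, so links between same-numbered libraries are not excluded. With the replicate number as a block, 630 genes were called higher and 126 lower, with 514 and 100 spread. No result changed direction. Named genes near a threshold lost their call in places: CYP90D1 without s4 (0.9999) and with the block (0.97), PYL4 in the 16 libraries alone (adjusted p = 0.054), AqSTY2 without the 3 distant libraries (-0.97), and ROT3 without s1 replicate 6 (adjusted p = 0.062), while AqKXL2 gained it (-1.01 without s4). With a library left out, the fold change fell under the threshold for CYP90D1 (7 libraries), the WSD1-like gene Aqcoe5G158600 (7), AqSTY2 (5), TEL2 (2; s1 replicate 2 and s3 replicate 8) and LHCA6 (1; s1 replicate 8), at absolute log2 values of 0.93 or more, PP2-A1 Aqcoe4G084100 lost its call in 9 cases, and AqKXL2 (9) and AqAS1 (6) gained it. The cause was not tested. Many rising genes lay below 1 TPM, where counting limits precision.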

Other observations

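Gene families that the lists cover little or not at all, chosen from the annotation after the values were seen and given without a test, held further spread genes. Of 62 annotated cytochrome P450 genes, which oxidize lipids, hormones and secondary metabolites, 20 were spread and higher and 5 spread and lower. UDP-glycosyltransferases, which attach sugars to small molecules, had 9 of 23 spread and higher, GDSL lipases 8 of 18, pectin-modifying enzymes of the cell wall 7 of 10 and peroxidases 6 of 10, and none of these was called lower. B3 transcription factors had 1 spread and higher and 4 spread and lower of 22, and LOB-domain proteins 3 lower of 6. Since the annotation covers genes that the study had called in some comparison, the background is high, with 491 higher and 91 lower spread genes among 1954 annotated genes tested.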
